A study of Mus musculus with 7 samples.

Results

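The genes described here are 43 genes of DNA replication and S phase, measured in adult mouse hearts in which the chromatin remodelling ATPases Brg1 and Brm were both knocked out and in hearts of wild type mice. They were chosen by gene name among the non-control probes of the array, each gene stood for by its brightest probe over the 7 arrays. All 43 were on the array, out of 37074 distinct gene names, and 42 of them were among the 22839 genes bright enough to be tested. The exception was Ccne2, which encodes a cyclin that activates the kinase CDK2, and whose 1 probe was not well above background on any array.

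Heart RNA of adult females was used, from 3 wild type samples titled Wild Type_181, Wild Type_183, Wild Type_189 and 4 knockout samples titled Mutant_175, Mutant_182, Mutant_187, Mutant_188, and each sample was hybridised to 1 one-colour Agilent array. The wild type mice are labelled as not carrying the transgene and the mutant mice as carrying it with Brg1 and Brm knocked out, and both received tamoxifen. The design text names more samples than these 7, which were not analysed here. Per the design text, Brg1 was removed in adult cardiomyocytes by a tamoxifen-inducible Cre under a myosin heavy chain (MHC) promoter, in mice that were Brm null from the outset. The sources used here do not say whether the wild type mice also lacked Brm. That Cre acts in heart muscle cells. The labelled cell type is cardiomyocytes, but the labels describe a kit for tissue RNA and no cell isolation step, so RNA of other heart cells can be included. In such bulk RNA a change in the number of cells of a type cannot be told apart from a change in RNA per cell. Nothing beyond the sample numbers says that samples were separate animals, and p-values then measure only how far these samples spread, which may be technical.

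DNA replication starts with licensing, in which the origin recognition complex, CDC6 and CDT1 load a ring of 6 MCM proteins onto DNA. MCM10, CDC45 and the GINS complex then turn that ring into the active helicase, DNA polymerases with the clamp PCNA copy both strands, and ribonucleotide reductase and thymidylate synthase supply the nucleotides. E2F transcription factors and cyclin E switch on these genes at the entry into S phase. Adult cardiomyocytes have largely left the cell cycle, and most dividing cells in an adult heart belong to other cell types.

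Levels are given as the processed signal of a gene's probe divided by the array's 75th percentile, so that 1 is the level of that percentile; levels of different probes cannot be compared with each other. A difference is the knockout mean less the wild type mean of log2 levels, and a gene is said to have risen or fallen when the adjusted p from limma was under 0.05. The 75th percentile lay at a signal of 629.6 to 713 on the wild type arrays and 837 to 1147 on the knockout arrays, and 58.1% to 63.6% of spots were well above background. On the slide all 3 wild type arrays lay in row 1 and all 4 knockout arrays in row 2, so slide position and genotype cannot be told apart. Smarca4, the gene of Brg1, stood at 34.7, 32.8 and 34.2 in wild type and 5.87, 10.3, 14.9 and 8.25 in knockout, always listed in the order of the titles above, and it fell: -1.87 (SE 0.29, adjusted p = 0.0021, limma). Its level was lowest in Mutant_175. Markers of cardiomyocytes were bright, with a summed level of 6528 to 6978 in wild type and 3257 to 4025 in knockout over 14 genes.

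The replication genes did not move as one block. Of the 42 tested, 10 rose and 5 fell, against 16.4% and 25.8% of all genes tested (limma; 42.2% in either direction), and their median log2 fold change was 0.28 beside -0.12 for all genes. In shares of the members these were 23.8% higher and 11.9% lower. The genes that rose belong to nucleotide synthesis (Rrm2, Tyms), to E2F and cyclin E (E2f2, E2f8, Ccne1) and to helicase activation (Mcm10, Gins2), with Orc6, Pole and Fen1. The genes that fell encode clamp loader subunits (Rfc1, Rfc4), the single-strand binding protein RPA (Rpa1, Rpa3) and the helicase factor Cdc45, and none of these 5 was called with spike-in scaling. The knockout arrays lay wholly above the wild type arrays for 11 members and wholly below for 5, against 19.6% and 31.6% of all genes (51.3% for both together). Of the members 6 rose at least 2-fold (Mcm10, Gins2, Rrm2, Tyms, E2f2 and Ccne1), against 8.5% of all genes.

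All directions are relative to the 75th percentile of each array, and scaling to spike-in RNA added 0.57 to every log2 fold change in the median. With that scaling 18 of 42 members rose and 0 fell (limma; 0 at an unadjusted p under 0.05), beside 37.3% and 7.45% of all genes, and the members' median was 0.84 beside 0.44 for all genes. Of all calls over all genes, 38.8% were higher as reported, 49.5% with the percentile taken over the probes that cleared background on every array and 83.3% with spike-in scaling. The 10 replication genes that rose were all called higher again. Of the 5 that fell, Rfc1, Rfc4 and Rpa1 came to 0.08, 0.16 and 0.07, and Cdc45 and Rpa3 to -0.30 and -0.31, none of them called. With array weights, which give an array that departs from its group less weight, 19 members rose and 5 fell, beside 21.1% and 31.8% of all genes.

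**Figure D1:**
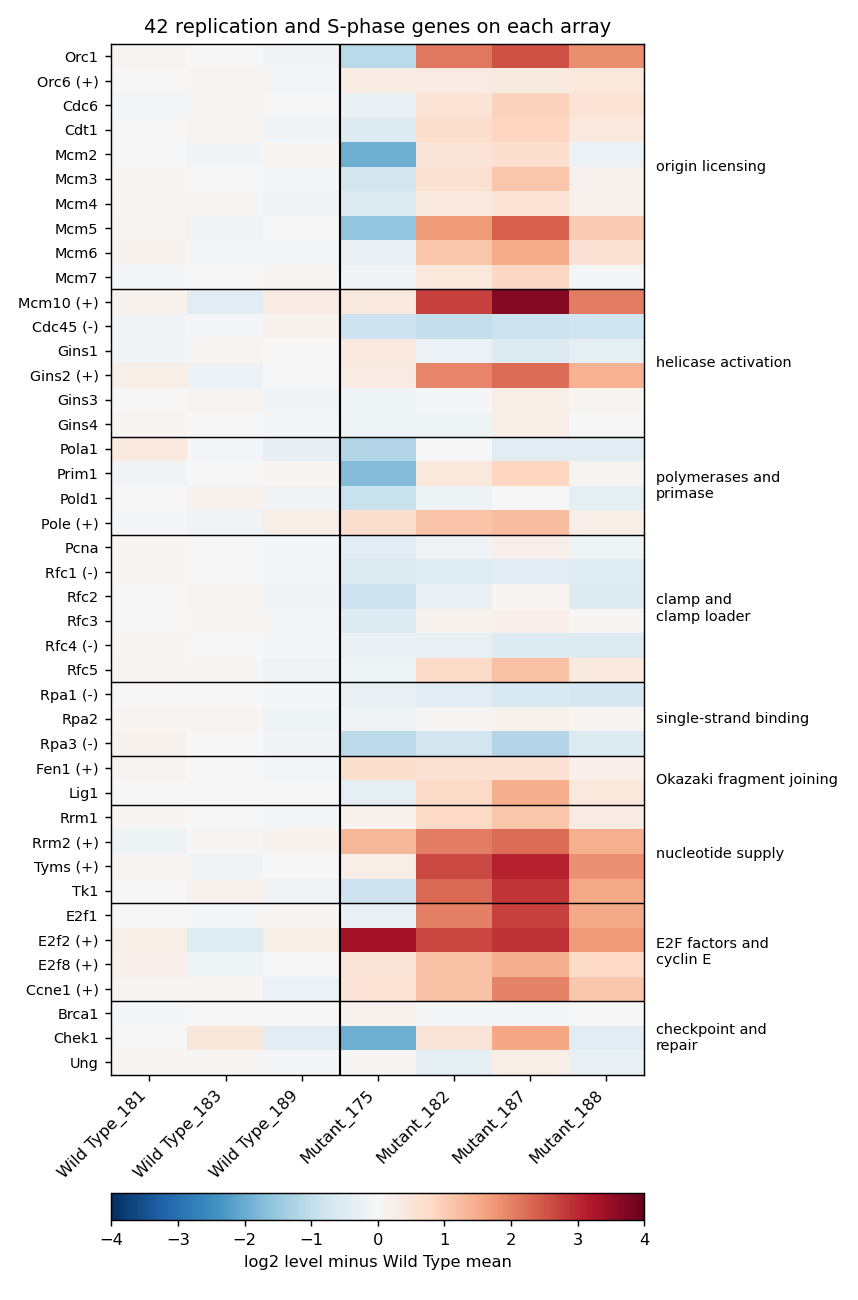
Colour gives the log2 level of each of the 42 tested genes on each array minus its mean over the 3 Wild Type arrays, with genes in rows by role and arrays in columns; (+) marks the genes that rose and (-) those that fell, relative to the array's 75th percentile. Mutant_175 is blue in many rows of licensing genes, and in that of the primase gene Prim1, where Mutant_182 and Mutant_187 are red.

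The 4 knockout arrays were spread widely for these genes, with Mutant_175 most often at the low end and Mutant_187 at the high end. Mutant_175 was the lowest of the 4 knockout arrays for 32 of the 42 members, or 76.2%, and for 30.8% of the 22809 genes with a value on every array. Mutant_187 was the highest for 32 members, beside 26.8% of all genes. The median over the members, relative to the wild type mean of each gene, was -0.25, 0.52, 0.83 and 0.17 on the log2 scale in the knockout arrays in the same order, while the same median over all genes was -0.10, -0.15, -0.17 and -0.09. Without Mutant_175, 20 of 42 members rose and 6 fell, that is 47.6% and 14.3%, beside 19.8% and 29.5% of all genes. Orc1, counted among the 20, was bright enough to be tested only through its knockout values. The median log2 fold change of the members was 0.46 without Mutant_175 and 0.05 without Mutant_187. All 10 members called higher with 7 arrays and all 5 called lower were again called without Mutant_175. Without another array the number that rose was smaller. It was 4 without Mutant_182, 6 without Mutant_187 and 6 without Mutant_188, or 9.52%, 14.3% and 14.3%. The shares of all genes were 13.6%, 15.8% and 14.1%. Without Wild Type_181, Wild Type_183 and Wild Type_189 it was 5, 3 and 3, or 11.9%, 7.14% and 7.14%. Here the shares of all genes were 11.8%, 11.8% and 11.5%. The members' share was thus near or below that of all genes in each of these runs. The number that fell was 3 without any one wild type array, or 7.14%, beside 17.8% to 19.6% of all genes.

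Licensing genes build the ring that marks an origin. Counts of this and the other role groups stand beside 16.4% higher and 25.8% lower among all genes. Of the 10 licensing genes tested, 1 rose and 0 fell, the same counts as at an unadjusted p under 0.05 (limma), with a median of 0.35. That gene was Orc6, which encodes the smallest subunit of the origin recognition complex. Orc6 stood at 2.03, 2.10 and 1.91 in wild type and at 2.47, 2.53, 2.55 and 2.72 in knockout. The 4 knockout values were close together and all above the wild type values, and the difference was 0.35 (SE 0.10, adjusted p = 0.027, limma). Its probe lies on chromosome 8, 87831769 to 87831828 of mouse build mm9, the build of all probe positions here. The call was lost without Wild Type_181, Wild Type_183, Wild Type_189, Mutant_182 and Mutant_188 in turn, with adjusted p = 0.054 to 0.11 (limma).

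The MCM genes, which encode the 6 subunits of the ring, were spread widely among the knockout arrays, and none was called on its brightest probe with 7 arrays. They, like the other genes given by array below that were not called, are named after their values were seen. Mcm5 stood at 0.501, 0.418 and 0.471 in wild type and at 0.158, 1.51, 2.41 and 0.928 in knockout. Mutant_175 was below every wild type array for Mcm5, and the other 3 knockout arrays held more than any wild type array. Mcm6 was measured at 5.07, 4.40 and 4.34 in wild type and 3.86, 9.99, 12.8 and 6.91 in knockout. Mutant_175 was again below and the others above all wild type arrays. Mcm2 gave 0.676, 0.626 and 0.714 in wild type and 0.174, 0.969, 1.07 and 0.567 in knockout, so that Mutant_188 too lay below wild type for this gene. For the 6 genes Mcm2 to Mcm7, the log2 fold changes over 7 arrays lay between -0.25 (Mcm2) and 0.88 (Mcm5), with adjusted p from 0.16 (Mcm6) to 0.76 (limma). A second Mcm6 probe was called higher, at 1.24 (adjusted p = 0.0496, limma). Without Mutant_175, Mcm5 gave 1.70 (SE 0.33, adjusted p = 0.0063, limma) and Mcm6 gave 1.06 (SE 0.23, adjusted p = 0.0092, limma). Mcm2, Mcm3, Mcm4 and Mcm7 were then at 0.32, 0.63, 0.37 and 0.40 and not called. Leaving out Mutant_187 in its place moved them the other way, to -0.55, 0.01, -0.0035, 0.39, 0.49 and 0.08 for Mcm2 to Mcm7, none of them called.

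Orc1, Cdc6 and Cdt1 take part in loading that ring. On its brightest probe Orc1, the largest subunit of the origin recognition complex, cleared the background on 3 of 4 knockout arrays and on no wild type array. Its signal stood at 0.0186, 0.0173 and 0.0163 in wild type and at 0.00824, 0.0747, 0.102 and 0.0634 in knockout, and it was not called over 7 arrays (adjusted p = 0.21, limma). The mean log2 knockout level was 1.65-fold that of wild type when the wild type side was set to the lowest signal well above background. That ratio is no lower bound, because the knockout mean includes the Mutant_175 signal, which did not clear the background. The log2 fold change had a confidence interval of -0.52 to 3.24 (limma), so a rise is not shown. Cdc6, an ATPase that helps to open the ring, gave 0.224, 0.236 and 0.234 in wild type and 0.193, 0.338, 0.436 and 0.340 in knockout. Cdt1, which carries the ring to the origin, gave 1.53, 1.68 and 1.44 in wild type and 1.08, 2.50, 2.80 and 2.01 in knockout. In each of the 3 genes Mutant_175 had the lowest and Mutant_187 the highest of the knockout values, and Mutant_175 was below all wild type arrays. Without Mutant_175, Cdc6 and Cdt1 were called higher, at 0.67 and 0.64, with adjusted p = 0.0063 and 0.013 (limma). Orc1 was also called, at a fitted 2.18 that takes the wild type background signal as its level. It was bright enough to be tested only through the other 3 knockout arrays, where it was high, so that call is no support for a rise. Without Mutant_187, Orc1, Cdc6 and Cdt1 were at 0.96, 0.28 and 0.18 and not called.

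Promoters of several licensing genes hold a match to the sequence motif of E2F factors. The 4 shown are those of genes with a match before the start for which Mutant_175 was below, and the other 3 knockout arrays above, every wild type array. RefSeq sequences of build GRCm38.p6 from 250 bases before to 50 bases after the start were available for 36 of the 43 genes, in 41 windows (Ccne2, Gins1, Gins2, Gins4, Mcm4, Pole and Rfc2 had no entry). The E2F motif was searched as TTTCCCGC, TTTCGCGC, TTTGCCGC or TTTGGCGC on both strands. It was present in the 250 bases before the start in 8 of the 41 windows, or 19.5%, and in 1.86% of all 32851 windows of the table. With the 50 bases after the start the shares were 31.7% and 2.26%. The 250 bases before the start lie at chr4:108579204-108579453 on the plus strand for Orc1, chr11:98907901-98908150 on the plus strand for Cdc6, chr8:75109259-75109508 on the plus strand for Mcm5 and chr1:128359706-128359955 on the minus strand for Mcm6. They are written 5′ to 3′ on the strand of the gene, with each match to the motif in capitals; adjoining matches overlap on opposite strands in Mcm5 and Mcm6.
Orc1: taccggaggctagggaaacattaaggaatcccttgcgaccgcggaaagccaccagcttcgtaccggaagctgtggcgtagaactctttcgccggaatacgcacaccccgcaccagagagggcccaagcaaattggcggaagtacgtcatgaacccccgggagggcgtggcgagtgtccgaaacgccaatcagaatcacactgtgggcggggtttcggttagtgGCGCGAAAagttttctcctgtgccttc
Cdc6: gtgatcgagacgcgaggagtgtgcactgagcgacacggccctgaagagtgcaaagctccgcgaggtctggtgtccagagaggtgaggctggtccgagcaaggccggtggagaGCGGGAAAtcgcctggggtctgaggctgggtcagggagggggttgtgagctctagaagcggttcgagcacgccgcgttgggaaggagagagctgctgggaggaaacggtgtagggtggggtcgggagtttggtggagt
Mcm5: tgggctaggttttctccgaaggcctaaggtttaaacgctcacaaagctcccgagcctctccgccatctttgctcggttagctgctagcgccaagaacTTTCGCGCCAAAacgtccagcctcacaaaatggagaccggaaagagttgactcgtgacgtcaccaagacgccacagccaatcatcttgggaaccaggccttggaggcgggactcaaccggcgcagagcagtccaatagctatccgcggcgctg
Mcm6: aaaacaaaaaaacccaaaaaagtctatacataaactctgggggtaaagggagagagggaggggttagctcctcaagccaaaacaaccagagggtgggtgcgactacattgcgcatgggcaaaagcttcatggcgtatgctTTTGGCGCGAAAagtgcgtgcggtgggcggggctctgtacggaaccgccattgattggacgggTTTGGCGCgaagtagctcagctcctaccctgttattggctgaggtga
Orc1 and Cdc6 hold 1 match each, Mcm5 holds 2 and Mcm6 holds 3. The other windows with a match before the start were those of Gins3, Mcm7, Pola1 and Rfc3, none of them called over 7 arrays. Among the windows of the genes that rose 0 of 10 held a match before the start and 1 (E2f2) within the whole window, and among those of the genes that fell 0 of 5. No match means only that these letters are not in this window. The CCAAT box was in 61.0% of the member windows and 33.8% of all windows, and the CHR element TTTGAA in 14.6% and 16.0%, both on either strand of the 250 bases.

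Helicase activation genes split by gene. Of 6 tested, 2 rose (Mcm10, Gins2) and 1 fell (Cdc45), with a median of 0.0028. MCM10 is a scaffold needed to unwind the origin. Mcm10 stood at 0.0555, 0.0367 and 0.0637 in wild type and at 0.0657, 0.337, 0.642 and 0.209 in knockout. Mutant_175 lay just above the highest wild type value, and the other 3 several times higher. The difference was 2.21 (SE 0.70, adjusted p = 0.038, limma), measured on chromosome 2, 4911845 to 4911904. A second Mcm10 probe, which cleared the background on 1 of 3 wild type and 3 of 4 knockout arrays, was not called, at 1.34 (adjusted p = 0.18, limma). Gins2, one of 4 GINS subunits, gave 0.290, 0.210 and 0.242 in wild type and 0.310, 0.960, 1.16 and 0.643 in knockout, with the same order of arrays. Its log2 difference was 1.48 (SE 0.43, adjusted p = 0.027, limma), and its second probe also rose, by 1.27. The calls of both Mcm10 and Gins2 were lost without any one array other than Mutant_175, at adjusted p = 0.061 to 0.12 for Mcm10 and 0.051 to 0.090 for Gins2 (limma), and without Mutant_175 they rose by 2.82 and 1.86.

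CDC45 travels with the MCM ring as part of the active helicase. Cdc45 stood at 0.283, 0.295 and 0.338 in wild type and at 0.171, 0.157, 0.168 and 0.174 in knockout. On this brightest probe all 4 knockout values were alike and below wild type, Mutant_175 included. The log2 difference was -0.86 (SE 0.11, adjusted p = 0.00092, limma), at chromosome 16, 18807449 to 18807508, and it stayed called without any single array but not with spike-in scaling, where it was -0.30. A second, dimmer Cdc45 probe gave -0.75 and was not called (adjusted p = 0.33, limma). It stood at 0.147, 0.152 and 0.130 in wild type and at 0.0275, 0.102, 0.186 and 0.0991 in knockout. There Mutant_175 was lowest and Mutant_187 lay above every wild type array. The remaining GINS genes Gins1, Gins3 and Gins4 had log2 fold changes of -0.19, 0.02 and -0.02 and were not called. Without Mutant_175, Gins1 fell by 0.38 (adjusted p = 0.036, limma). A second Gins4 probe, nearly as bright as the first, fell by 0.52 (adjusted p = 0.0096, limma).

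**Figure D2:**
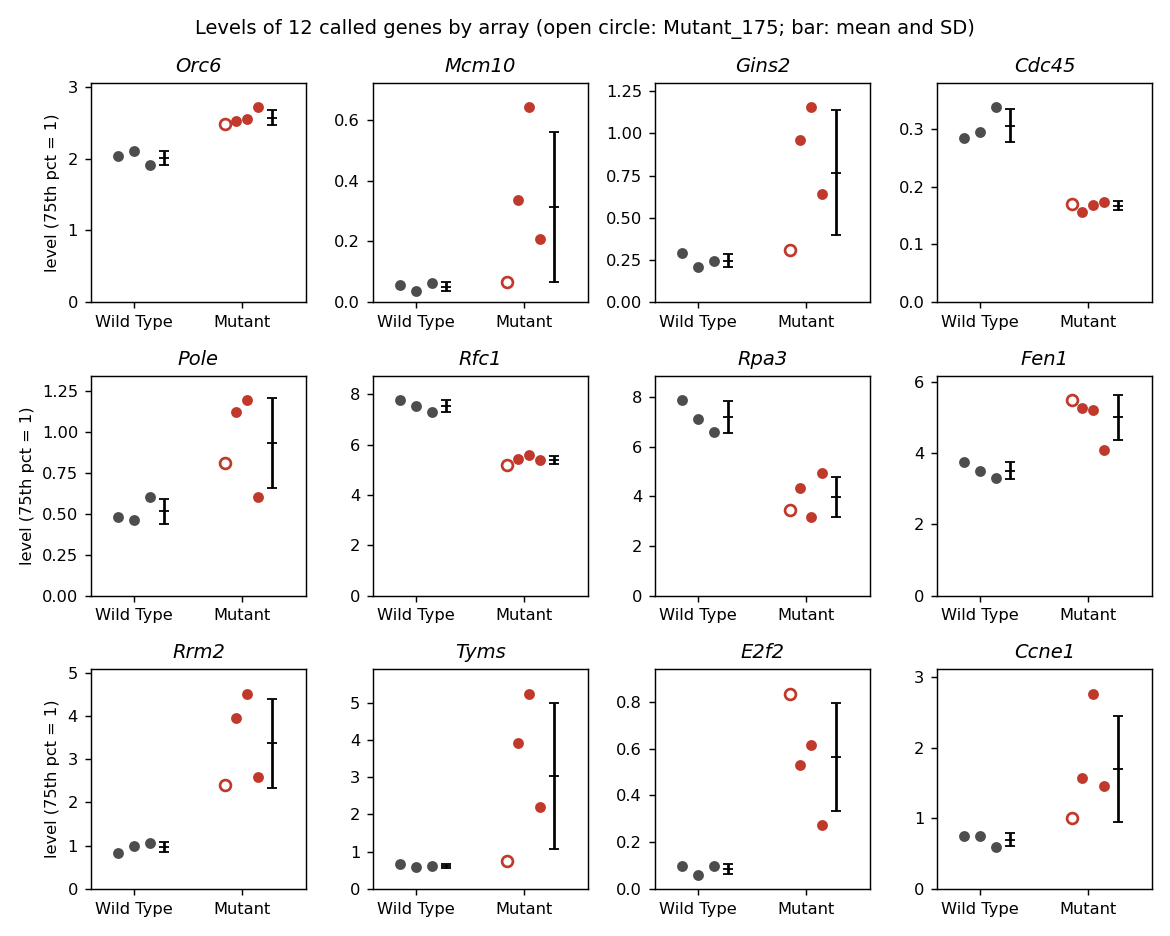
Each panel plots the level of 1 gene (signal over the array's 75th percentile, linear axis from 0) in the 3 Wild Type and 4 Mutant samples, with the mean and SD as a bar beside the points and Mutant_175 as an open circle. For Cdc45, Rfc1 and Orc6 the 4 knockout samples lie close together, and for Mcm10, Gins2 and Tyms the open circle lies near wild type.

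Polymerase genes had 1 of 4 higher and 0 lower, the same at an unadjusted p under 0.05 (limma). Pole, the catalytic subunit of the leading-strand polymerase, stood at 0.483, 0.462 and 0.604 in wild type and 0.815, 1.12, 1.20 and 0.605 in knockout. Mutant_188 lay just above the highest wild type array and the other 3 clearly above it. Its log2 difference was 0.81 (SE 0.25, adjusted p = 0.035, limma), at chromosome 5, 110766375 to 110766434, and the call was lost without Wild Type_181, Wild Type_183, Wild Type_189, Mutant_182 and Mutant_187 in turn (adjusted p = 0.055 to 0.11, limma). A far dimmer Pole probe gave 0.38 and was not called. Pola1, which starts each new strand together with primase, and Pold1, of the lagging-strand polymerase, had log2 fold changes of -0.51 and -0.36 and were not called. Prim1, the primase itself, gave 0.836, 0.916 and 0.947 in wild type and 0.271, 1.20, 1.62 and 0.960 in knockout, with the lowest value of all arrays in Mutant_175 and a difference of -0.09 (SE 0.56, adjusted p = 0.91, limma).

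PCNA, the sliding clamp, rings the DNA and holds the polymerase, and replication factor C, made of 5 subunits, opens and loads it. Of these 6 genes 2 fell and 0 rose, the same at an unadjusted p under 0.05 (limma), with a median of -0.27. Rfc1, the large subunit, stood at 7.76, 7.55 and 7.30 in wild type and at 5.18, 5.42, 5.59 and 5.38 in knockout. The 2 groups were each tight and did not overlap, with a difference of -0.48 (SE 0.10, adjusted p = 0.0063, limma), at chromosome 5, 65653207 to 65653266, called without any single array as well, but 0.08 and not called with spike-in scaling. Rfc4 gave 4.86, 4.56 and 4.34 in wild type and 3.82, 3.72, 3.20 and 3.15 in knockout. All knockout values were below wild type, with a difference of -0.41 (SE 0.12, adjusted p = 0.030, limma), and all 3 of its probes fell, by 0.60 and 0.49 on the other 2. With spike-in scaling Rfc4 came to 0.16. The Rfc4 call was lost without Wild Type_181, Wild Type_183, Wild Type_189, Mutant_187 and Mutant_188 in turn (adjusted p = 0.051 to 0.11, limma).

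Pcna, often used as a marker of S phase, stood at 14.0, 13.6 and 12.8 in wild type and at 9.80, 12.1, 15.4 and 11.9 in knockout, and the groups overlapped. Its log2 difference was -0.15 (SE 0.16, adjusted p = 0.49, limma), with a 95% interval of -0.53 to 0.23. Rfc2 and Rfc3 gave -0.39 and -0.03 and were not called. Without Mutant_187, Rfc2 fell by 0.55 (adjusted p = 0.037, limma). Rfc5 was not called at 0.54, and without Mutant_175 it rose by 0.77 (adjusted p = 0.023, limma), while without Mutant_187 it was at 0.33. Its 3 probes disagreed: the second gave 0.92 and was not called, and the third fell by 0.90 (adjusted p = 0.044, limma).

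RPA coats the single-stranded DNA that the helicase exposes. Rpa1, its large subunit, stood at 30.5, 30.7 and 29.1 in wild type and at 25.2, 21.8, 19.5 and 19.1 in knockout. Here Mutant_175 was the knockout array nearest to wild type. Rpa1 fell, with a difference of -0.50 (SE 0.13, adjusted p = 0.018, limma) at chromosome 11, 75113898 to 75113957, and its second probe fell by 0.65, while with spike-in scaling Rpa1 came to 0.07. Rpa3, the small subunit, gave 7.87, 7.12 and 6.60 in wild type and 3.44, 4.35, 3.16 and 4.92 in knockout, with all knockout values below. Its log2 difference was -0.88 (SE 0.18, adjusted p = 0.0066, limma) at chromosome 6, 8206247 to 8206753, and the call held without any single array but not with spike-in scaling (-0.31), while that of Rpa1 was lost without any one wild type array (adjusted p = 0.055 to 0.068, limma). Rpa2 was not called, at 0.03 (SE 0.13, adjusted p = 0.85, limma).

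Okazaki fragments are trimmed by FEN1 and sealed by DNA ligase 1. Fen1 stood at 3.75, 3.50 and 3.29 in wild type and at 5.49, 5.26, 5.22 and 4.08 in knockout. All knockout values were higher, and here Mutant_175 was the highest. Fen1 rose by 0.50 (SE 0.14, adjusted p = 0.021, limma), at chromosome 19, 10273675 to 10273734, with the call lost without Wild Type_183, Wild Type_189 and Mutant_182 in turn (adjusted p = 0.055 to 0.087, limma). Lig1 gave 1.87, 1.91 and 1.89 in wild type and 1.45, 3.22, 5.16 and 2.51 in knockout, with Mutant_175 below wild type and Mutant_187 highest. Lig1 was not called over 7 arrays at 0.56 and rose by 0.87 (SE 0.26, adjusted p = 0.029, limma) without Mutant_175, while it was at 0.26 without Mutant_187.

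Of the 4 nucleotide supply genes, 2 rose and 0 fell (3 and 0 at an unadjusted p under 0.05, limma), with a median of 1.60. Rrm2, the S-phase subunit of ribonucleotide reductase, stood at 0.837, 1.004 and 1.07 in wild type and at 2.40, 3.96, 4.52 and 2.59 in knockout. Every knockout value was far above the wild type values, Mutant_175 included. Rrm2 rose by 1.75 (SE 0.25, adjusted p = 0.0014, limma) measured on chromosome 12, 25398824 to 25398883, and stayed called in each of the 20 alternative analyses. Rrm1, the large subunit, gave 2.31, 2.26 and 2.18 in wild type and 2.46, 3.92, 4.83 and 2.84 in knockout, which did not overlap, but it was not called at 0.59 (SE 0.23, adjusted p = 0.075, limma).

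Tyms, thymidylate synthase, stood at 0.677, 0.578 and 0.619 in wild type and at 0.753, 3.91, 5.25 and 2.19 in knockout. Mutant_175 was just above wild type and the other 3 several times higher. Tyms rose by 1.95 (SE 0.61, adjusted p = 0.035, limma) at chromosome 5, 30387605 to 30387664, its second probe rose by 2.12, and the third, much dimmer, gave 0.63 and was not called. Without any one array other than Mutant_175 the Tyms call was lost (adjusted p = 0.066 to 0.10, limma), and without Mutant_175 it rose by 2.51 (SE 0.31, adjusted p = 0.0011, limma). Tk1, thymidine kinase, the salvage enzyme of S phase, gave 0.427, 0.487 and 0.393 in wild type and 0.243, 2.08, 3.13 and 1.24 in knockout. Its value in Mutant_175 was the lowest and that in Mutant_187 the highest of all arrays, and Tk1 was not called at 1.45 (SE 0.79, adjusted p = 0.18, limma). Without Mutant_175, Tk1 rose by 2.21 (SE 0.33, adjusted p = 0.0021, limma) and Rrm1 by 0.75 (adjusted p = 0.020, limma). Without Mutant_187 they were at 0.98 and 0.43 and not called.

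Of the E2F factors and cyclin E, 3 of 4 tested rose and 0 fell (4 and 0 at an unadjusted p under 0.05, limma), with a median of 1.35. E2f2, an activating E2F, stood at 0.0976, 0.0604 and 0.0992 in wild type and at 0.836, 0.531, 0.615 and 0.274 in knockout. In contrast to most members, Mutant_175 had the highest E2f2 level of all arrays and Mutant_188 the lowest of the knockout. E2f2 rose by 2.65 (SE 0.38, adjusted p = 0.0014, limma) at chromosome 4, 135750562 to 135750621, its second probe rose by 2.90, and it stayed called in each of the 20 alternative analyses. E2f1, the other activating E2F of the list, gave 0.152, 0.141 and 0.158 in wild type and 0.125, 0.610, 1.01 and 0.427 in knockout. Mutant_175 was below the wild type values and E2f1 was not called at 1.51 (SE 0.63, adjusted p = 0.090, limma), but without Mutant_175 it rose by 2.09 (SE 0.30, adjusted p = 0.0019, limma), and without Mutant_187 it was at 1.09 and not called. Mutant_175 thus held the highest knockout level of E2f2 and the lowest of E2f1.

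E2f8, a repressor that E2F itself induces, stood at 0.299, 0.235 and 0.257 in wild type and at 0.377, 0.587, 0.714 and 0.460 in knockout. All knockout values were higher, and E2f8 rose by 0.99 (SE 0.23, adjusted p = 0.011, limma) at chromosome 7, 56121860 to 56121919, called in each of the 20 alternative analyses. Ccne1, cyclin E1, gave 0.753, 0.753 and 0.592 in wild type and 1.01, 1.58, 2.77 and 1.45 in knockout, also without overlap. Ccne1 rose by 1.19 (SE 0.32, adjusted p = 0.020, limma), at chromosome 7, 38882937 to 38882960, and was not called without Wild Type_183 and Wild Type_189 in turn (adjusted p = 0.052 to 0.073, limma). Ccne2 lay between 0.00652 and 0.0216 on all 7 arrays, not well above background, so no fold change is given.

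The checkpoint and repair genes of the list were not called, 0 of 3 higher and 0 lower, also at an unadjusted p under 0.05 (limma). Ung, which removes uracil from DNA, stood at 32.8, 32.8 and 30.7 in wild type and 33.2, 25.3, 38.4 and 26.1 in knockout, with overlap and a difference of -0.08 (SE 0.17, adjusted p = 0.72, limma). Chek1, the kinase of the replication checkpoint, cleared the background on 1 of 3 wild type and 2 of 4 knockout arrays and gave -0.08 (SE 0.75, adjusted p = 0.94, limma). Brca1, which repairs breaks at forks by homologous recombination, was not called on its brightest probe, at -0.01 (SE 0.11, adjusted p = 0.95, limma), at chromosome 11, 101386419 to 101386478. A second Brca1 probe, at 101350409 to 101350468 of the same chromosome, rose by 2.09 (adjusted p = 0.031, limma). That probe stood at 0.0276, 0.0369 and 0.0290 in wild type and 0.0411, 0.203, 0.310 and 0.114 in knockout, and 1 of the 3 wild type values was not well above background. The 2 probes disagree, and no direction is given for Brca1. Second probes of Cdc6, Chek1, Gins1, Lig1, Mcm3, Mcm7, Pola1, Rfc3 and Tk1 were not called (limma), like the brightest probes of these genes.

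**Figure D3:**
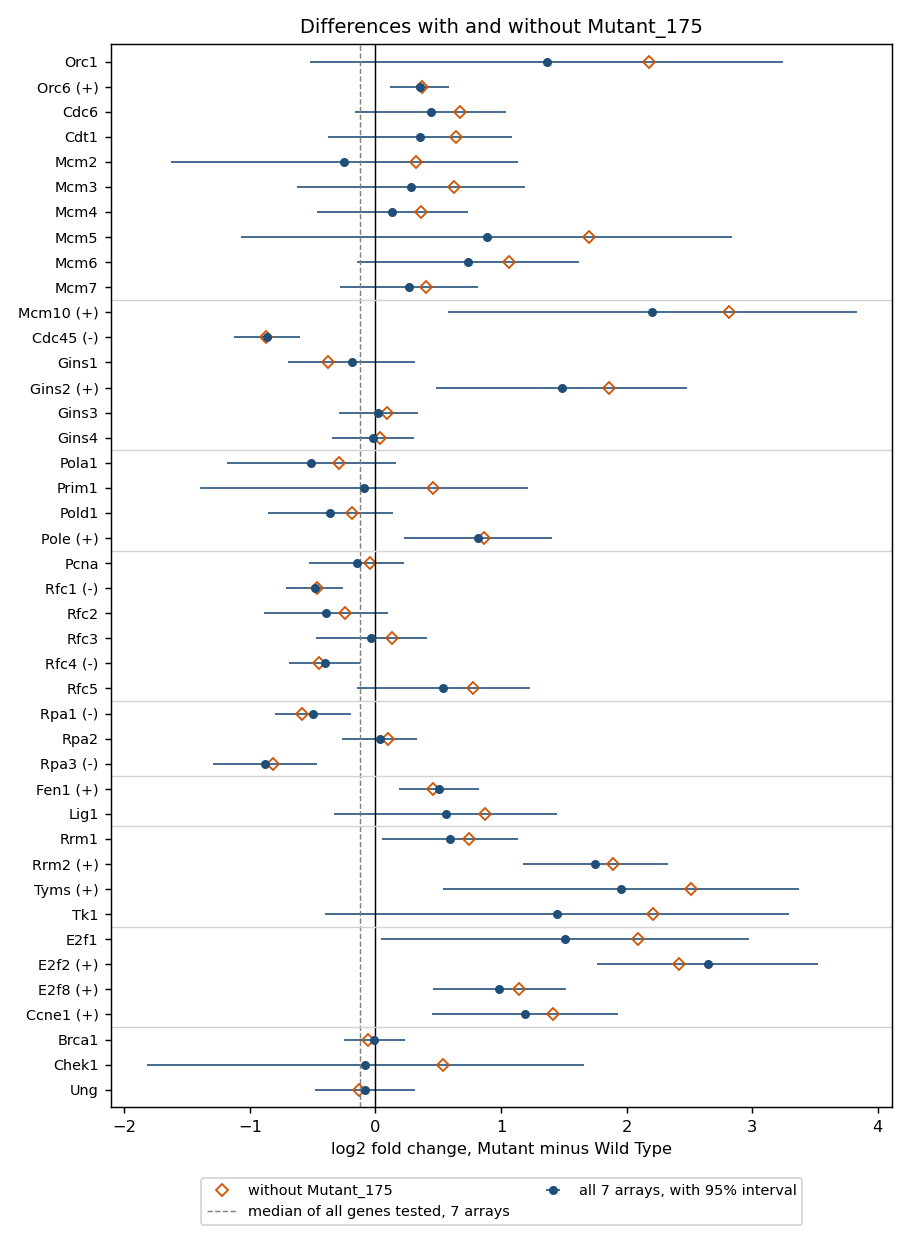
Points give the log2 fold change (Mutant minus Wild Type) of each tested gene over all 7 arrays with its 95% interval from limma, and diamonds the value without Mutant_175; the dashed line is the median of all genes tested. Leaving out that array moved Orc1, Mcm5, Tk1 and E2f1 upwards and left Cdc45, Rfc1 and Orc6 nearly in place.

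A pattern noticed in these values was counted over all genes. For 12 of the 42 members Mutant_175 was below every wild type array while the other 3 knockout arrays were above every one, or 28.6%. The share over all 22809 genes was 2.57%. These members were Cdc6, Cdt1, Orc1, Mcm3, Mcm4, Mcm5, Mcm6, Prim1, Rfc5, Lig1, Tk1 and E2f1. Of the 11 with a promoter entry, 4 held the E2F motif in the 250 bases before the start and 7 within the 300-base window, as did 4 and 6 of the other 25 members with one. As the pattern was chosen after the values were seen, no test is given for it.

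Replication genes outside the list were counted from lists of related genes. Their counts stand beside 16.4% higher and 25.8% lower among all genes. Origin and helicase factors had 4 of 14 higher and 2 lower, among them Wdhd1 (a polymerase anchor at the fork) at 1.23, Mcm9 at 0.76 and its partner Mcm8 at -0.76. Geminin (Gmnn), which binds CDT1 and blocks licensing, stood at 27.4, 28.1 and 27.1 in wild type and 20.1, 9.85, 9.08 and 12.5 in knockout, and it fell by 1.17 (adjusted p = 0.011, limma); it is named here after its values were seen. Fork and polymerase subunits had 3 of 20 higher and 4 lower, or 15% and 20%, near the shares of all genes. Among them were Tipin (of the fork protection complex) at 0.91, Top1 (topoisomerase I) at -0.70 and Pold4 at 0.50. Other nucleotide enzymes had 3 of 12 higher and 4 lower. Dck (deoxycytidine kinase) rose by 0.91 and Nme1 by 1.09, while the nucleoside diphosphate kinase Nme2 fell by 0.76.

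Regulators of the G1 to S transition had 4 of 22 higher and 5 lower, and their median was -0.04. These were 18.2% and 22.7%, near the 16.4% and 25.8% of all genes. E2f3, another activating E2F, stood at 0.0847, 0.108 and 0.122 in wild type and 0.353, 0.271, 0.312 and 0.304 in knockout, all of the latter higher, and rose by 1.57 (SE 0.16, adjusted p = 0.00032, limma). E2f6, a repressing E2F, gave 28.5, 27.6 and 27.1 in wild type and 14.9, 12.3, 12.8 and 12.1 in knockout and fell by 1.09 (adjusted p = 0.00038, limma). Cdkn1a, which encodes the CDK inhibitor p21, gave 2.10, 3.35 and 4.37 in wild type and 22.1, 17.5, 11.8 and 13.4 in knockout and rose by 2.33 (SE 0.30, adjusted p = 0.00097, limma). Its level, like that of E2f2 and E2f3, was highest in Mutant_175. Among the members the same held for Fen1, Gins1 and the brightest Brca1 probe. These genes were grouped after their values were seen, the share of all genes highest in that array was not counted, and a link between them was not tested. Checkpoint and recombination genes had 1 of 20 tested higher and 2 lower, with Rad51ap1 at 0.83, Xrcc2 at -1.35 and Rad1, of the checkpoint clamp, at -1.05. Genes that rebuild chromatin behind the fork had 3 of 10 higher and 1 lower. Uhrf1, which recruits the maintenance DNA methyltransferase, rose by 2.70, the histone chaperone Nasp rose by 0.71 and the chaperone Asf1a fell by 1.48.

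Genes of G2 and mitosis, the phases that follow S phase, were counted beside them. Of 20 tested, 14 rose and 1 fell, or 70% and 5%, beside 16.4% and 25.8% of all genes. Their median was 2.21, with Birc5 (survivin) at 3.17, Bub1b at 2.19 and Nusap1 at 1.99. The gene that fell was the kinetochore gene Cenpf, at -3.46. Their median relative to wild type was 0.36, 3.04, 3.43 and 2.34 in the knockout arrays as listed, which ranks the arrays as the replication genes did. Without Mutant_175, 19 of the 20 rose and 1 fell, beside 19.8% and 29.5% of all genes. The difference between this list and the replication genes was not tested.

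**Figure D4:**
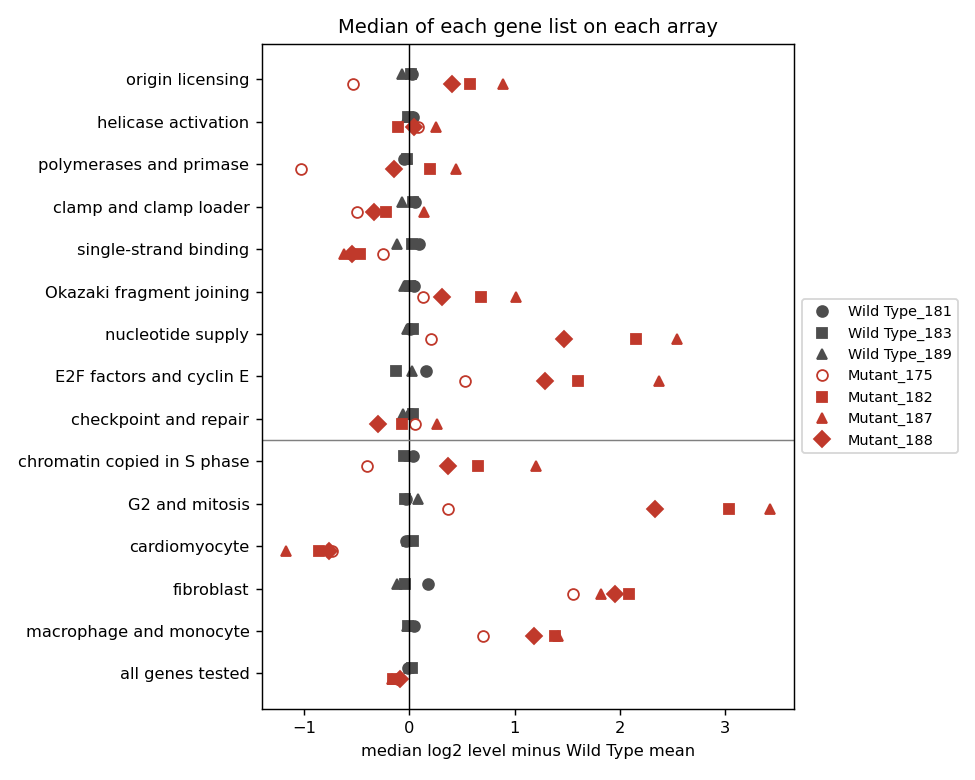
Each symbol is the median over a gene list of the log2 level on 1 array minus the Wild Type mean of each gene; role groups of the replication list stand above the line and other lists below it. Open circles (Mutant_175) lie at the low end of the knockout arrays for licensing, nucleotide supply, E2F and mitosis genes, and of the fibroblast and macrophage markers.

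Markers of other heart cells moved between the groups as well. Fibroblast markers had 9 of 10 higher and macrophage markers 7 of 10 (limma). Among all genes 16.4% rose and 25.8% fell. The summed level of fibroblast markers was 311 to 342 in wild type and 664 to 925 in knockout, and that of macrophage and monocyte markers was 108 to 119 in wild type and 121 to 229.8 in knockout. Mutant_175 had the lowest macrophage sum of the knockout arrays, 121, and the lowest fibroblast sum, 664. Its smooth muscle sum, 431, and neutrophil sum, 34.7, were also the lowest of the knockout arrays. Its endothelial sum, 112, and lymphocyte sum, 13.9, were the highest of them. Smooth muscle and pericyte markers had 3 of 7 higher, with sums of 84.3 to 97.8 in wild type and 431 to 524 in knockout. Most of that difference was Acta2, at 44.8, 39.7 and 33.4 in wild type and 381, 415, 439 and 465 in knockout, and without it, a choice made after seeing the data, the sums were 51.0 to 57.1 and 50.4 to 75.7. Endothelial markers had 1 of 9 higher and 3 lower, with sums of 93.8 to 97.5 in wild type and 73.5 to 112 in knockout. Lymphocyte markers had 2 of 7 tested higher (sums of 6.89 to 9.23 in wild type and 9.99 to 13.9 in knockout), neutrophil markers 1 of 6 higher and 2 lower (sums of 45.1 to 49.9 in wild type and 34.7 to 49.1 in knockout), and epicardial markers 3 of 6 higher (sums of 2.31 to 3.35 in wild type and 3.21 to 8.98 in knockout). Of the epicardial markers, Krt19 (called) and Krt8 (not called) cleared the background on all 4 knockout arrays and on no wild type array. The macrophage marker Ccr2 (called) did so on 4 knockout arrays and 1 wild type array. These genes were bright enough to be tested only through the knockout arrays, where they were high, so the calls of Krt19 and Ccr2 are no support for a rise. Of the 14 cardiomyocyte markers 10 fell and 1 rose. The part of these cells in the levels of the replication genes was not tested.

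**Figure D5:**
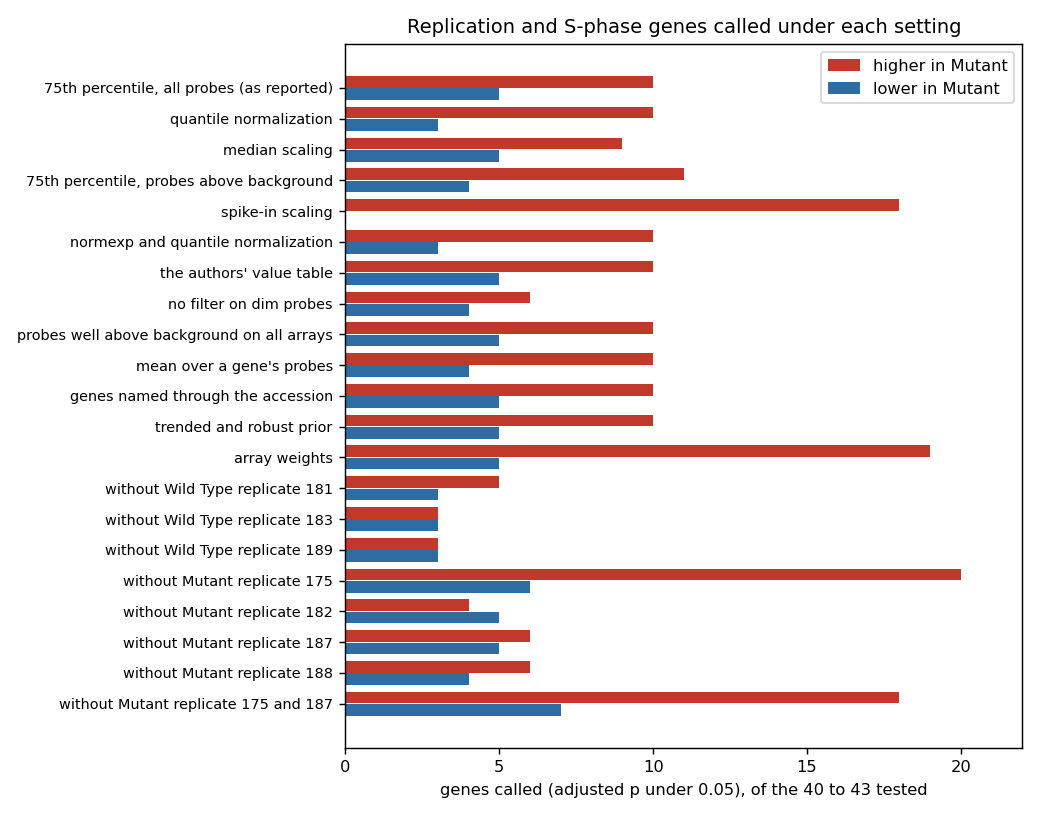
Bars count the replication and S-phase genes that rose (red) or fell (blue) at an adjusted p under 0.05 from limma, for the analysis as reported and each of 20 alternatives. Counts of genes that rose were largest without Mutant_175 (20), with array weights (19), with spike-in scaling and without Mutant_175 and Mutant_187 (18 each), and smallest without Wild Type_183 or Wild Type_189 (3).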

How the data were processed

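Per the file headers, the authors extracted spot intensity with Agilent Feature Extraction 10.7.3.1. The deposited processed signal, a linear intensity after background correction, was used with the flags for background, saturation and outliers. The authors' deposited value table, a linear intensity, served only as an alternative. Repeat spots were averaged per probe, and values are log2 of the signal less that of the array's 75th percentile. Genes needed a probe well above background on 3 arrays, and the brightest such probe stood for the gene. All 7 arrays lay on 1 slide with 1 scan time, and member values included no outlier spots. Because each array is scaled to its own percentile, a change in total RNA is removed. Probe positions are those of the files, on mm9, with exons not looked up.

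Genes were fitted with lmFit and eBayes of limma 3.58.1 in R 4.3.3 over the 7 arrays with no covariate, Benjamini-Hochberg adjustment over 22839 genes and a threshold of 0.05. The array number limits the precision. The members and lists were chosen with earlier results of these data known. In each role group all called genes were named (the 4 with the smallest p if more, the 1 with the smallest p if none), and up to 3 called genes of other lists, besides Smarca4. No replicate number occurs in both groups. On simulated data, 10 draws over 22809 genes with 200 changed, 2.99%, 45.8% and 84.8% of log2 changes of 0.5, 1 and 2 were called, and 5.03% of calls were false. Far fewer genes changed there than the 42.2% called in the data, which makes the adjusted cutoff stricter. Those shares therefore do not give the share of changes called here. Alternatives changed scaling, background correction, probe filter and choice, gene naming, prior, weights and arrays.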

Additional observations from a re-analysis of the deposited data

Results flagged for a closer look

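Among the 42 tested genes, the level of Fen1 in Mutant_188 was the 1 value that lay far from the rest of its group of 4 knockout samples. It was 4.08, against 5.22 to 5.49 in the other 3 knockout samples. On the log2 scale the gap to the nearest of them was 0.831 of the whole range, just above the 95% critical value of Dixon's test for 4 samples. The test was run on log2 levels only, not on the linear levels printed here, and the flag depends on that scale. Chance alone puts about 1 in 20 groups past that value. Wild type samples, being 3, were not examined in this way. No value of Mutant_175 lay that far from its group in any of the 42 genes.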

How the results depend on the processing

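Alternatives were fixed with earlier results of these data known, and results are of limma throughout. E2f2, E2f8 and Rrm2 kept their direction and their call in each of 20 alternatives, as did Rfc1 and Rpa3 in 19 of them, all but spike-in scaling. With that scaling Rfc1, Rfc4 and Rpa1 turned positive at 0.0827, 0.16 and 0.0660, Brca1 came to 0.56 (adjusted p = 0.032), the median of the replication genes was 0.84, 18 of them rose and 0 fell, and over all genes 8513 rose and 1701 fell; the scaling itself adds to every value. With all probes of a gene averaged, Brca1 came to 1.04 and the calls of Mcm10 and Cdc45 were lost. The number that rose was 6 with no filter on dim probes, where Orc6, Mcm10, Pole and Tyms lost their calls, 19 with array weights and 18 without Mutant_175 and Mutant_187 together. The shares of all genes that rose were 8.88%, 21.1% and 19.3%. The number that fell was 3 with quantile normalization and 3 with normexp and quantile normalization, where the calls of Rfc4 and Rpa1 were lost. Leaving out each array in turn gave 3 to 20 genes that rose and 3 to 6 that fell. Over all genes 11.5% to 19.8% then rose and 17.8% to 29.5% fell. The cause of these differences was not tested. No paired analysis was possible because the groups share no replicate number. Signals near background limit Orc1, Chek1 and Ccne2, and at 3 against 4 arrays small changes can be missed.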
